A study of Homo sapiens with 4 samples.

Results

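The genes described here encode the protein subunits of the mitochondrial ribosome. They were chosen by name, as every gene whose symbol is MRPL or MRPS followed by a number, with pseudogene and antisense symbols left out and only probe sets that the array's annotation gives to a single gene. This gave 75 genes out of 19775 named genes on the array. All 75 passed the filter on dim genes (a cutoff at the 40th percentile of the genes' mean log2 signal, here 70.5 in signal units), which kept 11865 genes in all.

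The cells were HEK293, an established line derived from human embryonic kidney. Treated cells spent a night in serum-free medium before 2 h with 1 µM LPA (lysophosphatidic acid, a lipid signal in serum whose receptors couple to G proteins). The untreated group is labelled with treatment none, and its titles carry the letters Vc, which are not explained. Each group had 2 Affymetrix arrays, numbered 1 and 2. Whether the untreated cells also lost serum, whether the replicates were separate cultures and what a shared number marks are not stated, so a p-value here reflects the scatter among 4 arrays and that scatter may be technical. In bulk RNA, fewer cells of a kind and less RNA per cell cannot be told apart.

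Mitochondrial ribosomes translate the few proteins that the mitochondrial genome encodes, all of them parts of the respiratory chain and the ATP synthase. Their RNA is transcribed in the organelle, but every one of their proteins is encoded in the nucleus, made in the cytosol and imported. Many of these proteins have a counterpart in the ribosome of bacteria, and others exist only in mitochondria. A proliferating line such as HEK293 needs a steady supply of them as its mitochondria grow and divide.

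The 2% trimmed mean intensity was 500.1 on every array, which is the scaling the values carried when deposited. LPA replicate 2 stood apart by its maximum intensity, 62508. LPA replicate 1 reached 93776, and the untreated arrays reached 97077 and 104012. The HEK293 background markers NEFM, NEFL, KRT18 and VIM had signals between 2079 and 30202, while KRT8 and PAX2 were dimmer (93.6 to 275.7). The leukocyte marker PTPRC, the liver marker ALB, the muscle marker MYH7 and the glial marker GFAP lay below the filter on mean signal, whereas HBB and PECAM1 passed it with signals of 48.3 to 175.5.

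Between replicate numbers, MRPL54 and MRPS26 were more than 2-fold lower on the arrays numbered 2 in both treatments, and MRPL30, MRPL36 and MRPL43 had the 3 highest differences in the other direction. The region from 250 bases before to 50 bases after a listed start of each of these genes (RefSeq, GRCh38.p14) is shown. Nuclear genes for mitochondrial proteins often carry binding motifs of a few shared factors there. For MRPL36 the start used lies inside the gene's full span, chromosome 5 from 1798385 to 1801434, so its window does not flank the outer end of the gene. Capitals mark exact matches, on either strand, to a consensus of NRF1 (nuclear respiratory factor, a regulator of genes for mitochondrial proteins), CCGGAAGT for the ETS family, which includes the GABP complex, AAGATGGCG for YY1, or CCAAT. The window of MRPL54 is chr19:3762432-3762731 on the plus strand, that of MRPS26 chr20:3045802-3046101 on the plus strand, that of MRPL30 chr2:99180934-99181233 on the plus strand, that of MRPL36 chr5:1799788-1800087 on the minus strand and that of MRPL43 chr10:100987448-100987747 on the minus strand.
MRPL54: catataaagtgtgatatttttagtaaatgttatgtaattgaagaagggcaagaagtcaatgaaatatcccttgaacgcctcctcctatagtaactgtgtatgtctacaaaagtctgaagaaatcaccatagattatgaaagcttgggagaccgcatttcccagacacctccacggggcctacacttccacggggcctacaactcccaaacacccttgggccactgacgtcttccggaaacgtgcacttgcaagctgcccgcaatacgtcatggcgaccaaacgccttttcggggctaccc
MRPS26: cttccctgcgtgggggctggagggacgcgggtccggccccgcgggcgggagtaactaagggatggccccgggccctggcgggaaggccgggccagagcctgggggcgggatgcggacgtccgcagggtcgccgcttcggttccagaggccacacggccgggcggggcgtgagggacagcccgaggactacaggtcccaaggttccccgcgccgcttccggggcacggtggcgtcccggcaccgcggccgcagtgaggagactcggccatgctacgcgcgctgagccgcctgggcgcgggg
MRPL30: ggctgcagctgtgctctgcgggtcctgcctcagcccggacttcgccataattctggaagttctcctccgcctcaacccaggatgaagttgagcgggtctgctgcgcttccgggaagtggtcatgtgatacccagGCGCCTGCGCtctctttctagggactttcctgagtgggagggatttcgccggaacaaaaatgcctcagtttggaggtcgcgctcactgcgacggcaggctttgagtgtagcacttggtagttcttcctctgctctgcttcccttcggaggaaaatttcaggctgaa
MRPL36: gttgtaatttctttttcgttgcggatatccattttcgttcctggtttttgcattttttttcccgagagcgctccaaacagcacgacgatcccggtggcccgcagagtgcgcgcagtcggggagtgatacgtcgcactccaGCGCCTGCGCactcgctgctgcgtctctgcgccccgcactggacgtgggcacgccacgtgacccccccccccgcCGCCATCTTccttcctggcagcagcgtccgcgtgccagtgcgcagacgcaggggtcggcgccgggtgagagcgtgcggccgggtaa
MRPL43: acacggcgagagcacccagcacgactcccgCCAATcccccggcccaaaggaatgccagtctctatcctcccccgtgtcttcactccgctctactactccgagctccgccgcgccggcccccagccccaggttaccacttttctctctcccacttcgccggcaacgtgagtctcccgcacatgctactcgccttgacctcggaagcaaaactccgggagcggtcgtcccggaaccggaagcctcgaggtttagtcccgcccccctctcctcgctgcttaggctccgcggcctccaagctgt

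No capitals occur in the windows of MRPL54 and MRPS26. MRPL30 and MRPL36 each hold 1 match to the NRF1 letters, and MRPL36 holds 1 to the YY1 letters. MRPL43 holds CCAAT and none of the other marked motifs. RefSeq gave a window for 67 of the 75 members. The YY1 letters were found in 17.91% of these 67 windows (12 of them), against 4.07% of the 9724 windows of genes tested and 1.85% of all 27303 windows. The ETS letters were found in 14.93% of members, against 8.91% of genes tested and 4.44% of all windows. The NRF1 letters were found in 11.94% of members, close to the 12.13% of genes tested, and in 6.29% of all windows. TATAAA occurred in 2.99% of members, against 5.35% of genes tested and 11.95% of all windows, and the cyclic AMP response letters TGACGTCA in 0 of 67, against 3.4% and 1.98%. CCAAT was found in 29.85%, against 37.03% and 35.7%. The ETS, YY1 and NRF1 letters do not contain one another. These are letter matches and were not tested for binding.

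Of the 67 windows, 21 (31.34%) faced another gene on the opposite strand that starts within 1000 bases upstream, against 24.79% of genes tested. In 1 case both partners are members: MRPL46 and MRPS11 start 320 bases apart on chromosome 15 and run in opposite directions. MRPL46 occupies 88459478 to 88467388 and MRPS11 88467708 to 88480776 (GRCh38.p14). Both encode ribosomal proteins, 1 of the large and 1 of the small subunit, and both had lower signals on the arrays numbered 2, as given below.

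Setting LPA against untreated cells asks whether transcripts of the mitochondrial ribosome differ after 2 h of LPA. None of the 75 members passed limma's adjusted p of 0.05 over all genes tested, and their adjusted p-values were all 0.9999. In the same test 0 of 11865 genes (0%) passed. At an unadjusted limma p under 0.05 there were 0 members, against 207 genes (1.74%) in all. With limma and the replicate number as a term, 32 genes (0.27%) passed and 0 of them were members, while 5 members had an unadjusted p under 0.05, against 8.55% of all genes.

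The members' LPA differences were narrow. Their log2 differences ran from -0.48 to 0.12 with a standard deviation over members of 0.107, while those of all genes tested ran from -1.88 to 3.15 with a standard deviation of 0.294. No member differed by 1.5-fold or more, against 648 genes (5.46%) in all. For 62 of 75 members (82.7%) the 95% interval of the difference lay within 1.5-fold in either direction, against 32.1% of all genes. For 73 (97.3%) it lay within 2-fold, against 73.0% of all genes. The members whose intervals were wider than 2-fold were MRPL54 and MRPS26, in which arrays of the same treatment lay far apart. The members are bright, with a median signal of 4710 against 759 for all genes tested, and their median standard error (SE) was 0.16 against 0.24.

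Within this range the members lay mostly on the lower side after LPA. The median log2 difference was -0.064, against 0.0092 for all genes tested, and 55 members (73.3%) were below 0, against 48.1% of all genes. Centring each array on its median made these shares 61.3% and 41.8%. Both LPA values lay below both untreated values for 14 members (18.7%), against 12.5% of all genes, and above them for 1 member (1.33%), against 14.4%. In replicate number 1 the median was -0.044, against -0.0014 for all genes, and in number 2 it was -0.083, against 0.025. Without LPA replicate 2, the array with the low maximum intensity, the median was -0.027 and 44 members were below 0 (58.7%, against 49.3% of all genes). Over both numbers, other bright gene sets lay further to the lower side. Of 70 tested oxidative phosphorylation genes 60 were below 0, with a median of -0.11. Both LPA values were lower in 22 of them and higher in 3. Among 52 cytosolic ribosomal protein genes 51 were below 0, with a median of -0.32, and both LPA values were lower in 32. Their medians in each number are given below. No test was made of the members or of these sets as a whole.

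**Figure D1:**
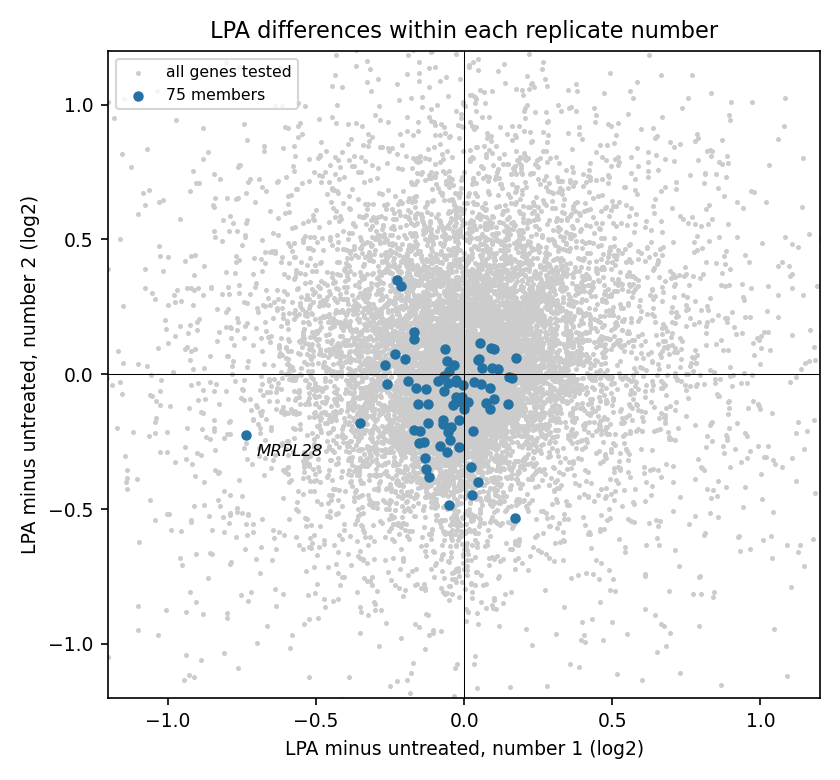
Log2 difference of LPA minus untreated for each gene in replicate number 1 (horizontal axis) and number 2 (vertical axis), with all genes tested in grey and the 75 members in blue; axes are cut at 1.2 in each direction and hold every member. The members form a tight group with a median of -0.044 in number 1 and -0.083 in number 2, and MRPL28 lies apart to the left.

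MRPL28, a large-subunit protein with a bacterial counterpart, had the lowest value. Its signal was 1268 and 1868 on LPA arrays 1 and 2, against 2111 and 2184 on the untreated arrays. The groups do not overlap, and LPA array 1 lay well below the other arrays. The log2 difference was -0.48 ± 0.21 (SE, 2 arrays per group), with a 95% interval of -0.96 to 0.0019 and a limma adjusted p of 0.9999. It was -0.73 in number 1 and -0.23 in number 2, and -0.20 without LPA replicate 1. With the replicate number as a term, MRPL28 had a limma adjusted p of 0.101, the smallest among the members, and did not pass.

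MRPL27, the counterpart of a bacterial protein near the peptidyl transferase centre, had signals of 6417 and 5997 after LPA, against 6964 and 7815 in untreated cells, a difference of -0.25 ± 0.15. MRPL18 had 11783 and 11026 after LPA, against 12461 and 13246 (-0.17 ± 0.15). MRPL47, whose bacterial relative sits beside the exit of the nascent chain tunnel, had 12494 and 11350 after LPA, against 13003 and 13844 (-0.17 ± 0.15). In these members the LPA values were lower in both numbers and more so in number 2, which holds the LPA array with the low maximum intensity. Under cyclic loess the differences were smaller, at -0.19 for MRPL27, -0.080 for MRPL18 and -0.077 for MRPL47.
MRPL4 (-0.14 ± 0.16) and MRPS27, a protein of the small subunit found only in mitochondria (-0.14 ± 0.15), also had no overlap between groups. MRPL4 is measured by 2 further probe sets, which gave -0.13 and -0.16. MRPL50 was the 1 member with both LPA values above both untreated values, at 4068 and 4176 against 3823 and 3905, a difference of 0.09 ± 0.15. Its other probe set above the filter gave 0.30.

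By role, the LPA medians were close to each other. The class found only in mitochondria includes MRPS18A and MRPS18B here, although they are relatives of a bacterial protein. Large-subunit proteins with a bacterial counterpart had a median log2 difference of -0.066 over 30 genes and those found only in mitochondria -0.067 over 20. Small-subunit proteins had -0.046 over 15 genes with a bacterial counterpart and -0.11 over 10 found only in mitochondria. Each subgroup spans 0, and differences between subgroups were not tested.

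**Figure D2:**
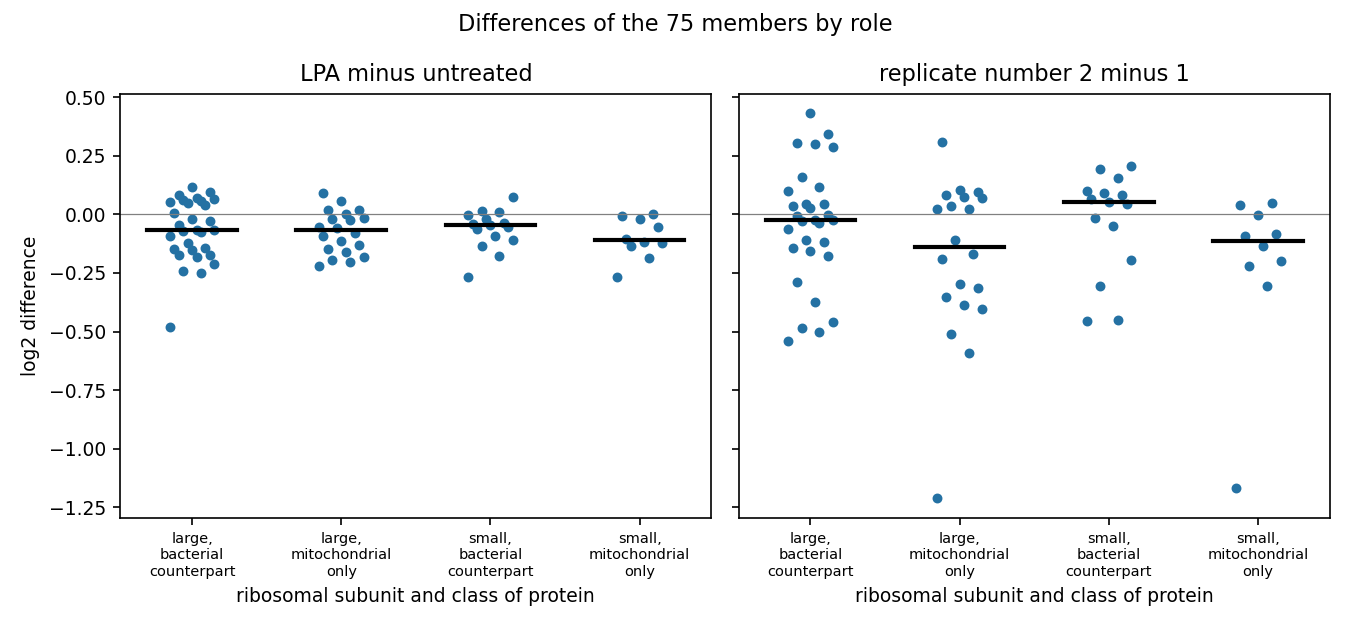
Log2 differences of the 75 members, 1 point each, for LPA minus untreated (left) and replicate number 2 minus number 1 (right), grouped by ribosomal subunit and by whether the protein has a bacterial counterpart; horizontal bars are medians and horizontal scatter has no meaning. MRPS18A and MRPS18B, relatives of a bacterial protein, are placed among those without a counterpart. The spread is narrower on the left (-0.48 to 0.12) than on the right (-1.21 to 0.43), where MRPL54 and MRPS26 are the lowest points.

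The comparison of arrays numbered 2 with arrays numbered 1 asks whether the members differ between the replicate numbers, whatever these mark. Here 8 of 75 members passed limma's adjusted p of 0.05 (10.7%), against 3.75% of all genes, and all 8 were lower in number 2. With the filter at the 60th percentile 11 members passed, against 6.8% of the genes then tested. The members' median SE was 0.12, against 0.18 for all genes, so smaller differences passed among them. A difference of 1.5-fold or more was found in 3 members (4%), against 12.23% of all genes. At an unadjusted p under 0.05 there were 21 members (28%), against 19.9% of all genes. Over all genes 248 (2.09%) passed as lower and 197 (1.66%) as higher. Both values of number 2 lay below both of number 1 for 29 members (38.7%), against 24.1% of all genes, and above them for 16 (21.3%), against 26.5%. The members' median was near 0 at -0.025, against 0.014 for all genes. Under cyclic loess it was 0.012, against 0.022 for all genes.

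MRPL54, a protein of the large subunit that bacteria lack, had signals of 1699 (LPA) and 1611 (untreated) in number 2, against 3535 and 4154 in number 1. The lower pair and the higher pair are far apart, and the treatment made little difference within either. The log2 difference was -1.21 ± 0.12 (SE), a 2.32-fold lower signal, with limma adjusted p = 0.000989. The gene lies on chromosome 19 from 3762682 to 3767565 (GRCh38.p14) and has 1 probe set on the array.

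MRPS26, a mitochondria-specific protein of the small subunit, had signals of 2711 (LPA) and 3076 (untreated) in number 2, against 5747 and 7334 in number 1. The number 2 arrays again lay apart from both number 1 arrays. The log2 difference was -1.17 ± 0.14, a 2.25-fold lower signal, with limma adjusted p = 0.00264. A second, dim probe set of the gene, below the filter, had 12.5 and 23.4 in number 2, against 69.5 and 109.4 in number 1. The gene lies on chromosome 20 from 3046052 to 3048250. A decrease of 2-fold or more in number 2 was found in these 2 members (2.67%), against 0.95% of all genes.

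The other 6 called members were lower by 1.38-fold to 1.51-fold. MRPL40, whose gene lies in the chromosomal region deleted in DiGeorge syndrome, had signals of 3178 (LPA) and 3941 (untreated) in number 2, against 5098 and 5590 in number 1, a log2 difference of -0.59 ± 0.13 (limma adjusted p = 0.0338). MRPL58, a peptidyl-tRNA hydrolase that became part of the large subunit, had 2787 and 3325, against 4111 and 4572 (-0.51 ± 0.12, adjusted p = 0.0471). In both, no value of number 2 reached any of number 1.
MRPL1, the mitochondrial form of the protein of the ribosome's mobile stalk beside the tRNA exit site, had 2575 and 3288 in number 2, against 4047 and 4420 (-0.54 ± 0.13, adjusted p = 0.0493). MRPL12, which forms the stalk that recruits translation factors, had 4372 and 4691, against 6260 and 6206 (-0.46 ± 0.11, adjusted p = 0.0445). MRPL10, which anchors the MRPL12 stalk, had -0.0078 (adjusted p = 0.979), and MRPL11 at the base of that stalk had -0.12 (adjusted p = 0.602).
MRPL15 had 5521 and 5972 in number 2, against 8021 and 8238 (-0.50 ± 0.11, adjusted p = 0.0376), and MRPL19 had 3736 and 3675, against 5288 and 5075 (-0.48 ± 0.11, adjusted p = 0.0361). Both are large-subunit proteins with a bacterial counterpart. The 2 further probe sets of MRPL19 gave -0.55 and -0.18, and the dim second probe set of MRPL12 gave -0.12.

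These calls rest on limma's intensity trend, which lets bright genes share a small variance: without it 0 members and 0 genes passed, and MRPL54 and MRPS26 had adjusted p = 0.239. Leaving out an array kept 2 members without untreated replicate 1 or without LPA replicate 1, 4 without LPA replicate 2 and 8 of the 8 (10 in all) without untreated replicate 2, and MRPL54 and MRPS26 passed in each of these cases. Each such fit leaves 1 array for a replicate number, which is assumed to vary like the other number's pair. No filter on dim genes left 2 members called, and the mean of all probe sets left 1, MRPL54.

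**Figure D3:**
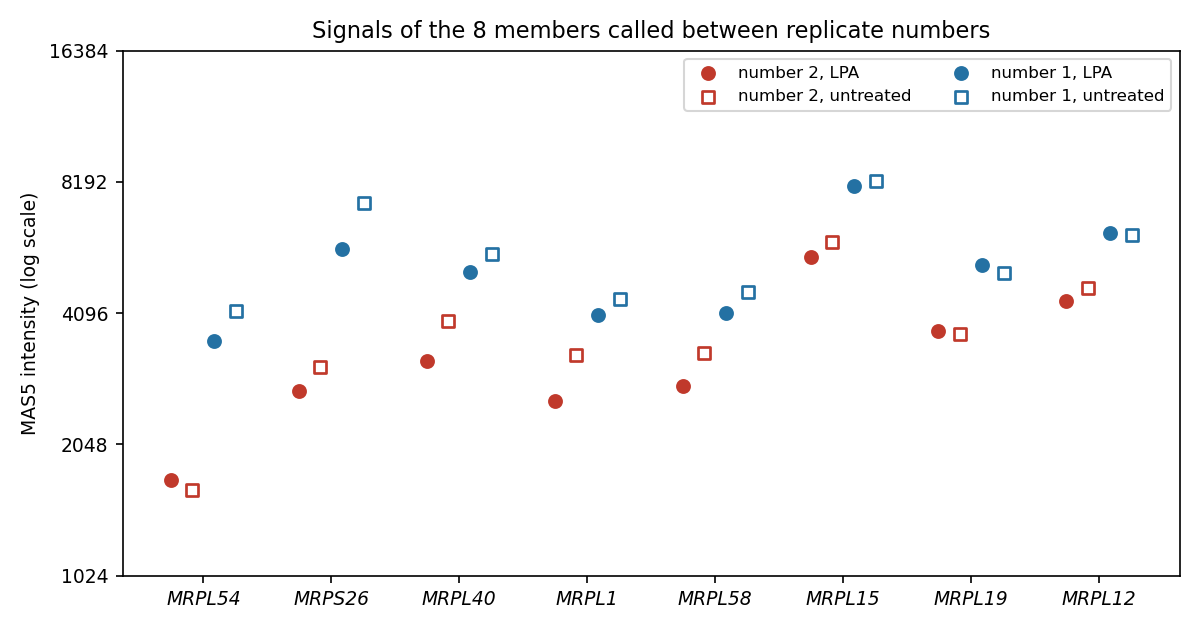
MAS5 intensity (log scale) on each of the 4 arrays for the 8 members that passed the threshold between replicate numbers, with number 2 in red, number 1 in blue, filled circles for LPA and open squares for untreated. In every member both red symbols lie below both blue ones, and the gap is widest for MRPL54 (1699 and 1611 against 3535 and 4154).

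None of the members higher in number 2 passed, and their differences were smaller. MRPL30 had signals of 4365 (LPA) and 4210 (untreated) in number 2, against 3225 and 3123 in number 1, a log2 difference of 0.43 ± 0.11 (limma adjusted p = 0.0516). Both number 2 arrays were higher, but 4 further probe sets of this gene had number differences of 0.26, 0.22, -0.035 and -0.18. MRPL36 had 11766 and 12080, against 9393 and 9414 (0.34 ± 0.12, adjusted p = 0.132), and MRPL43 had 4967 and 5260, against 4087 and 4162 (0.31 ± 0.11, adjusted p = 0.138). MRPL17 (0.30 ± 0.12), MRPL22 (0.29 ± 0.11) and MRPS17 (0.21 ± 0.11) followed, also without overlap between the numbers. MRPL30 passed under quantile normalization, cyclic loess, pseudocounts of 16 and 64, the filter at the 60th percentile and with treatment as a term. MRPL36 passed as well under quantile normalization and cyclic loess, and quantile normalization with treatment as a term called 4 higher members, MRPL22, MRPL30, MRPL36 and MRPS21.

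MRPS11, whose bacterial relative lies in the platform of the small subunit, had signals of 1696 (LPA) and 1822 (untreated) in number 2, against 2393 and 2406 in number 1. Its divergent neighbour MRPL46 had 1561 and 1586, against 2063 and 2103. The log2 differences were -0.45 ± 0.12 and -0.40 ± 0.12, with limma adjusted p = 0.0577 and 0.0827, so neither passed here. Both passed with treatment as a term, and MRPS11 also under median centring and the filter at the 60th percentile. HIRA beside MRPL40 had -0.35 ± 0.17 (adjusted p = 0.266) and MITD1 beside MRPL30 had 0.37 ± 0.14 (adjusted p = 0.169), each with the sign of its neighbour. PTCD2 beside MRPS27 had 0.80 ± 0.17 (adjusted p = 0.0328) while MRPS27 itself had -0.0009 ± 0.12. PIERCE1 beside MRPS2 had 0.28 ± 0.27 (adjusted p = 0.611) while MRPS2 had -0.46 ± 0.12 (adjusted p = 0.0582). Signs thus agreed in some pairs and differed in others, and whether neighbours differ together was not tested.

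The number differences are given here by motif letters. None of the 7 called members with a RefSeq window held the NRF1, ETS or YY1 letters, against 27 of 67 members (40.3%) and 22.83% of genes tested. Only exact matches were counted. On either strand, the windows of MRPL54, MRPS26, MRPL30 and MRPL43 hold CCGGAAG, the ETS letters without the last, followed by another letter. The 8 members with the NRF1 letters had a median number difference of 0.099, from -0.13 to 0.43, with 1 of them below 0, and include MRPL30, MRPL36 and MRPL17. The 10 with the ETS letters had a median of -0.15, the 12 with the YY1 letters 0.051, the 27 with any of the 3 motifs 0.034 and the 40 with none of them -0.066. Over the genes tested the medians were 0.043 with the NRF1 letters, 0.035 with the ETS letters, 0.0040 with the YY1 letters, 0.031 with any and 0.0085 with none. These groups were formed after the values were seen and were not tested.

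**Figure D4:**
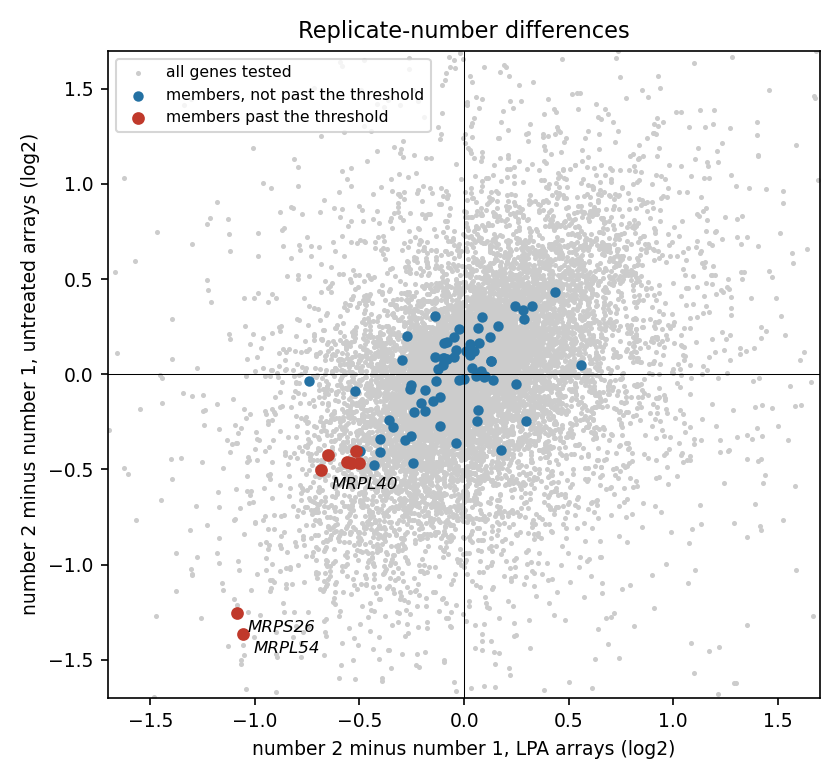
Log2 difference of replicate number 2 minus number 1 on the LPA arrays (horizontal axis) and on the untreated arrays (vertical axis), with all genes tested in grey, members in blue and the 8 called members in red; axes are cut at 1.7 in each direction and hold every member. The called members lie at the lower left, MRPL54 at -1.06 and -1.37 and MRPS26 at -1.08 and -1.25.

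Large-subunit genes made up 7 of the 8 called members, out of 50 large-subunit and 25 small-subunit genes tested. The median number difference was -0.14 over the 20 large-subunit members found only in mitochondria and -0.025 over the 30 with a bacterial counterpart. In the small subunit it was -0.11 over the 10 found only in mitochondria and 0.055 over the 15 with a counterpart. MRPS18A and MRPS18B are again counted among those found only in mitochondria. The difference between the subunits was not tested.

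The MRPS18 paralogs, relatives of a single bacterial protein of which human ribosomes use different copies at different places, did not pass in either comparison. MRPS18A, which sits in the large subunit despite its name, had signals of 1630 and 1272 after LPA, against 1789 and 1516 in untreated cells (-0.19 ± 0.20). MRPS18B had 4798 and 5001, against 5776 and 4880 (-0.12 ± 0.16), and MRPS18C 5465 and 5731, against 4889 and 5781 (0.07 ± 0.16). LPA and untreated values overlap in each of them. MRPS18A had a number difference of -0.30 ± 0.14 (limma adjusted p = 0.251), but its second probe set gave 0.19. MRPS18C gave 0.16 at its brightest probe set, with 0.64 and -0.18 at dim ones.

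Several members had mean LPA differences between -0.09 and 0.05. MRPS28 had signals of 5765 and 5755 after LPA, against 5989 and 5880 (-0.04 ± 0.14), and MRPL41 had 7183 and 7478, against 7349 and 7305 (0.0004 ± 0.14). MRPL11 had 4454 and 4117, against 4302 and 3954 (0.05 ± 0.15). MRPS30, a protein of the large subunit in spite of its name, had 4810 and 4656, against 4713 and 5392 (-0.09 ± 0.15). Its difference was 0.03 in number 1 and -0.21 in number 2. Their groups lay close together or overlapped. MRPL57 was level at its brightest probe set (0.02 for the number difference) while another gave -0.58, and MRPL41 had a second probe set at -0.37. Over 31 members with further probe sets above the filter, 33 of 55 such probe sets shared the sign of the brightest one in the number comparison (60%) and 34 in the LPA comparison (61.8%).

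Signals of different probe sets do not rank transcripts, and the members' signals covered a wide range. MRPL3 was the brightest, with 22300 and 18707 after LPA, against 23066 and 22160 in untreated cells, a difference of -0.15 ± 0.16. MRPS15, MRPS21 and MRPL20 followed, with LPA differences of -0.18, -0.02 and 0.10. MRPL2, the counterpart of a protein at the bacterial peptidyl transferase centre, was the dimmest, with 470.2 and 532.2 after LPA, against 550.0 and 417.3 (0.06 ± 0.26). MRPL38 had 659.5 and 394.2, against 585.5 and 571.5 (-0.18 ± 0.29), and MRPL45 and MRPL44 differed by 0.02 and -0.02.

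Among partners of the mitochondrial ribosome, 0 passed after LPA with limma. Of 5 subunits with other names 4 were tested, and GADD45GIP1, a large-subunit protein, was lower in number 2 at 1846 (LPA) and 1812 (untreated), against 2657 and 2671 in number 1 (-0.54 ± 0.11, limma adjusted p = 0.0299). Of 26 assembly factors 25 were tested and 0 passed in either comparison. The RNA helicase DHX30 came closest with -0.42 ± 0.11 between numbers (adjusted p = 0.0568), and FASTKD2, which binds the large-subunit RNA, had the smallest unadjusted p after LPA, with 0.43 ± 0.22.
Of 17 translation factors 15 were tested. MTRF1, a mitochondrial release factor, was higher in number 2 (0.97 ± 0.21, adjusted p = 0.0323), and TACO1, which activates translation of a cytochrome oxidase subunit, was lower (-0.63 ± 0.15, adjusted p = 0.0396). OXA1L, which inserts new proteins into the inner membrane, had the smallest unadjusted p of this list after LPA (-0.32 ± 0.17). The 4 genes of mitochondrial transcription did not pass in either comparison.
Of 9 nuclear regulators 8 were tested, and PPRC1, a coactivator that works with NRF1, passed between numbers. It had signals of 903.3 (LPA) and 995.5 (untreated) in number 2, against 1474 and 2049 in number 1, a difference of -0.87 ± 0.17 (adjusted p = 0.0206).

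Other abundant transcripts are set beside the members here. The 52 cytosolic ribosomal protein genes, which build the ribosome of the cytoplasm, had a median LPA difference of -0.028 in number 1 and -0.62 in number 2, where the LPA array had the low maximum intensity. For the members these medians were -0.044 and -0.083. The 70 tested genes of oxidative phosphorylation, most of whose complexes the mitochondrial ribosome helps to build, had -0.0058 and -0.18. Between replicate numbers 0 of the 52 and 0 of the 70 passed, against 8 of the 75 members and 3.75% of all genes. The median SE of the number difference was 0.24 for the cytosolic genes and 0.14 for oxidative phosphorylation, against 0.12 for the members. A given difference was therefore less readily called in the cytosolic genes. The part of the array's intensity range in these values was not tested, and the difference between the groups of genes was not tested either.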

How the data were processed

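The deposited intensity values are linear signals, and the submitters' processing notes name MAS5 without a version. Its scaling target is not stated. Trimmed means are equal on all arrays, and no further normalization was applied. Of 54675 probe sets, 41097 had a single symbol. Each gene took its brightest probe set by mean log2(intensity + 1).

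Differences were tested two-sided with limma 3.58.1 in R 4.3.3 (lmFit, eBayes with intensity trend) on log2(intensity + 1) over 11865 genes, with Benjamini-Hochberg adjustment over all of them and a threshold of 0.05. LPA was compared with untreated, and number 2 with number 1, without further terms. The 1 added to each intensity shrinks a fold most in dim genes, and only slightly at signals above the filter. Precision is limited by the 4 arrays.

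Members, lists and tests were chosen with earlier results of these data known. Named members were, per comparison, up to 6 in each direction without overlap, the 4 brightest and dimmest, 7 fixed genes and the 4 whose probe sets disagreed most. Genes of other lists were named by smallest unadjusted p. Other called members, MRPL10, MRPS11 with its neighbour MRPL46, and the neighbouring genes were named after their values were seen. Alternatives covered normalization, pseudocount, filter, probe sets, trend, replicate number and each array left out.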

Additional observations from a re-analysis of the deposited data

How the results depend on the processing

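For LPA minus untreated, the count of genes past the threshold was 0, and with the replicate block (replicate number as a term) it was 32, or 4 with quantile normalization in addition. The labels share only the number between groups. Over genes, deviations of same-numbered arrays correlated at 0.33, and crossing the numbers would only reverse the sign of this value. No fit with crossed numbers was run. Under the block 0 members passed, with a smallest limma adjusted p of 0.101, that of MRPL28. Leaving out 1 array gave 0 to 3 genes. The members' median was -0.064, against 0.0092 for all genes. Under cyclic loess these medians were -0.029 and -0.00078, and under median centring -0.031 and 0.042. With the mean of all probe sets they were -0.027 and 0.011. Without 1 array the members' median ran from -0.123 to -0.027. Its sign held under every alternative run, but median centring moves all genes of an array alike.

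For number 2 minus number 1, 445 genes and 8 members passed. With treatment as a term these were 1382 and 13, and with quantile normalization in addition 1184 and 16. With no filter they were 219 and 2, with the mean of all probe sets 12 and 1, and with no intensity trend 0 and 0. Leaving out 1 array gave 39 to 631 genes and 2 to 10 members. The members' median of -0.025 was -0.097 under median centring, where the median of all genes was -0.058, and ran from -0.096 to 0.0077 without 1 array. It was 0.012 under cyclic loess, where that of all genes was 0.022. MRPS26 had adjusted p = 0.0553 with the mean of all probe sets, which takes in its dim probe set. Other causes were not tested. The counts of members past the threshold were added after the data were seen. Of the 21 single-gene differences followed, 0 changed sign under any alternative. All of them lacked overlap between the groups compared, so leaving out an array could not change their sign. The filter, the trend and an added term leave the difference itself as it is. Without the block, the smallest SE of a member's LPA difference was 0.14.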

Other observations

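Probe sets that the annotation assigns to more than 1 gene were left out of the comparisons, and 3 of them involve a mitochondrial ribosomal protein gene. The probe set shared by MRPS24 and its read-through transcript with URGCP had signals of 20404 and 17079 on LPA arrays 1 and 2, against 22301 and 22835 on the untreated arrays, a log2 difference of -0.27. The probe set shared by MRPL53 and CCDC142 had 4119 and 3741, against 4064 and 3935 (-0.03). The probe set shared by MRPL51 and SPTLC1 had 2261 and 2289, against 2141 and 2297 (0.04), while the probe set of MRPL51 alone had 10596 and 9324, against 11517 and 10071.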
